A study of Rattus norvegicus with 20 samples.

Results

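The miR-10 and miR-196 families are small groups of microRNAs (miRNAs) whose genes lie inside the Hox clusters, the chromosomal runs of homeobox genes that assign position along the body axis. They were followed on rat miRNA arrays of the soleus muscle and of the dorsal root ganglia (DRGs), the clusters of sensory neurons whose peripheral axons run in the sciatic nerve. The members were taken by name, as every array entry that begins with rno-miR-10a, rno-miR-10b or rno-miR-196, which gave 7 of the 350 miRNAs on the array. These were miR-10a-5p, miR-10a-3p, miR-10b, miR-196a, miR-196a*, miR-196b and miR-196c. A star marks the strand of the precursor hairpin that is usually the less abundant one. The suffix 3p names the arm of the hairpin that a strand comes from, not its abundance. miR-10a-5p, miR-10b, miR-196a, miR-196b and miR-196c were detected on all 20 arrays, and miR-10a-3p and miR-196a* were detected on none.

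The study asked whether chronic compression of a nerve alters miRNAs in another way than cutting it. All animals were adult male Sprague-Dawley rats, and no group carried an engineered allele or received a drug treatment. In the denervation group the right sciatic nerve was cut at the thigh, a piece of it was taken out and the proximal stump was tied and turned away, so that the muscle stayed without its nerve for 6 months. In the entrapment group a non-constricting silastic tube lay around the sciatic nerve for 6 months, and in the decompression group the tube was removed after 6 months and the rats were followed for 3 more months. The sham group had an operation without nerve injury. Each tissue had 3 arrays for each of the 3 injury groups and 1 array for sham. The soleus and the DRGs of levels L4 to L6 came from the operated side. The methods name 3 rats in every group used for arrays, so the 3 arrays of an injury group stand for 3 rats. They name 3 for sham too, where the labels give 1 array per tissue, and whether that array held RNA of 1 rat or of a pool is not settled by these sources. All p-values against sham rest on a single sham array per tissue, whose spread was taken to equal that of the injury groups.

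A miRNA acts as a guide that pairs with messenger RNAs, mainly through its seed, the bases from position 2 to position 8 at its 5′ end, and lowers the output of the messenger. Members of the miR-10 family lie upstream of Hox4 genes and members of the miR-196 family upstream of Hox9 genes, and both families are known to act on Hox messengers. miR-196 is the classical case of an animal miRNA that directs cleavage of a messenger, that of Hoxb8. Because they are expressed with their neighbourhood in the cluster, these miRNAs mark the level along the body axis from which a tissue or its cells came, and hindlimb and lumbar tissues lie within the range of the posterior Hox genes.

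The mature sequences show how little separates the members. They were taken from RefSeq, assembly GRCr8, where 6 of the 7 members were matched; the capitals mark the seed.
miR-10a-5p: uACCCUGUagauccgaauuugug
miR-10b: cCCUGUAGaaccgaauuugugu
miR-10a-3p: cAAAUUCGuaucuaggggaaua
miR-196a: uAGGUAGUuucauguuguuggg
miR-196b: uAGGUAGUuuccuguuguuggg
miR-196c: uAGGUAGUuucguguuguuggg
For comparison, miR-100, a relative outside the Hox clusters, is given next; miR-99a was not matched in the table and was not compared.
miR-100: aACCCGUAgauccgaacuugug

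The 3 miR-196 forms shared 1 seed, AGGUAGU, which no other of the 724 rat mature sequences in the table had. miR-196b differed from miR-196a by A12C and miR-196c by A12G, counting from 1 at the 5′ end of miR-196a, so that 21 of 22 bases were the same in each pair. miR-10b as listed begins opposite position 3 of miR-10a-5p, and from there 20 of 21 facing bases were the same, the exception being U12A. Its listed seed was therefore shifted against that of miR-10a-5p. miR-100 differed from miR-10a-5p by C3A, U6C and U18C over 22 facing bases. How far the probe for one of these near-identical forms reads another was not tested, so a signal is that of the probe set named for the miRNA.

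The 5 genes lie in all 4 Hox clusters. On GRCr8, miR-10a-5p is at chr10:81779730-81779752 on the plus strand, between Hoxb5 and Hoxb4, and miR-196c is at chr10:81727561-81727582 on the plus strand, between Hoxb13 and Hoxb9. Their starts are 52.2 kb apart, the only pair of members within 1 cluster besides the strands of a single hairpin. miR-10b is at chr3:80035886-80035907 on the plus strand, within the annotated span of Hoxd4. miR-196a is at chr7:135988900-135988921 on the plus strand, between Hoxc10 and Hoxc9. miR-196b is at chr4:82661149-82661170 on the minus strand, between Hoxa9 and Hoxa10. miR-615, another miRNA of the Hoxc cluster, was not analysed here.

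The values are intensities, the background-subtracted signal summed over the probes of a miRNA, brought to a common level by dividing each array by its 75th percentile. The scanner software's own error of a single signal of the 5 detected members was between 5.34% and 17.6% of the signal. Levels are given as scaled signal, and differences as log2 differences from limma, with the standard error (SE) and a p-value adjusted by the Benjamini-Hochberg method over all miRNAs tested in the tissue. A miRNA was tested when it was detected on at least 3 arrays, 173 miRNAs in soleus and 219 in the DRGs. This left 5 members in each tissue; miR-10a-3p and miR-196a* were not tested. A second rule, after the 2-fold criterion of the study's methods, asked that all 3 arrays of a group lie at least 2-fold from sham.

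The marker miRNAs matched the labelled tissues. The summed signal of 6 skeletal muscle miRNAs ranged from 48288 to 301143 on the soleus arrays and from 265.1 to 473 on the DRG arrays. The summed signal of 6 neuronal miRNAs ranged from 3718 to 5103 in the DRGs and from 14.6 to 43.7 in soleus, where miR-183, miR-124, miR-9 and miR-9* were never detected. Between 134 and 194 miRNAs were detected per soleus array and between 183 and 233 per DRG array. The soleus sham array stood apart: its median rank correlation with the other soleus arrays was 0.80, against 0.89 to 0.96 for the other 9. On this array 11 of the 26 control signals of at least 20 units had exactly the value of a control signal on another array. Such repeats were 12 of 26 on denervation 1, 15 of 25 on denervation 2 and 8 of 20 on denervation 3. There were 6, 8 and 1 of 21 on entrapment 1, 2 and 3, 8 of 21 on decompression 1, and none on decompression 2 and 3 or on any DRG array. In the DRGs, the deposited processed table's columns for the 6 entrapment and decompression arrays hold the scanner values of the other group. The scanner files are followed here, and which naming is right is not settled by these sources. Also in the DRGs, the signals of 24 of 45 control features put the 4 sham and denervation arrays on one side and the remaining 6 on the other, and in soleus 12 of 45 did so. The median raw signal of 82 miRNAs detected on no array was between -2.24 and -1.44 on the DRG sham and denervation arrays and between -6.35 and -4.00 on the other 6. In soleus these ranges were -1.57 to -1.19 and -7.29 to -3.92. In both tissues, then, a difference of entrapment or decompression from sham or denervation cannot be told apart from this split of the arrays. In whole tissue, fewer cells of a type and less of a miRNA per cell cannot be told apart.

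Under the reported scaling, miR-196a was the only member called against sham in the injured soleus. Taken in either direction, the share of members called was not above that of all tested miRNAs. Its calls rest on a single sham array, which stood apart from the other soleus arrays. miR-196a was higher than sham on every one of the 9 injury arrays, with group means 3.01- to 3.58-fold above it. No pair of injury groups differed in it beyond the spread. The other 4 detected members did not pass the test in any injury group under the reported scaling, though quantile scaling called more members in each group.

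The scaled signal of miR-196a in soleus was 64.1 on the sham array. It was 256.1, 214.9 and 130.1 on the denervation arrays, 209.7, 209.8 and 273.8 on the entrapment arrays, and 237.5, 204.8 and 242.1 on the decompression arrays. The lowest injury array, denervation 3, was 2.03-fold above sham, only just past the 2-fold rule. With each array's median signal of the never-detected miRNAs subtracted, miR-196a no longer passed that rule after denervation. In limma the difference from sham was 1.59 ± 0.42 (SE) on the log2 scale after denervation (3.01-fold; adjusted p = 0.0219). Entrapment gave 1.84 ± 0.42 (3.58-fold; adjusted p = 0.0121). Decompression gave 1.83 ± 0.42 (3.55-fold; adjusted p = 0.0126). miR-196a was thus the 1 member of 5 called after denervation, where 26.6% of all 173 tested miRNAs were called in either direction and 11.6% as higher. It was again 1 of 5 after entrapment, against 29.5% of all miRNAs in either direction and 9.83% as higher, and after decompression, against 31.8% and 9.83%. In either direction, 1 member of 5 was thus not above the background. With 5 members, 1 called as higher is not set apart from the shares called higher. Of the miRNAs called after entrapment 17 were higher and 34 lower, a split that became 27 and 17 after quantile scaling.

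By the 2-fold rule miR-196a was also the only member to pass in each injury group, where 15.6% of the tested miRNAs were higher in this way after denervation, 11.0% after entrapment and 13.3% after decompression. Among the 173 miRNAs its difference ranked 23rd from the highest after denervation, 13th after entrapment and 19th after decompression. The median difference of all tested miRNAs was -0.07, -0.37 and -0.25 in the same order. Relative to that median, miR-196a was higher by 1.66, 2.21 and 2.08. Over 12 settings of scaling, filter and array choice these relative values ranged from 1.17 to 2.19, from 1.84 to 2.49 and from 1.83 to 2.50, so the direction held in each of them. The paper reports no up-regulated miRNA in soleus after entrapment or decompression. Nor is miR-196a among those it lists as up-regulated after denervation.

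The size after denervation rested in part on 2 arrays. Without denervation 1 and 2, the injury arrays with the most repeated control values, the difference was 1.02. That value sets 1 denervation array against 1 sham array, both assumed to vary like the other groups, and its adjusted p from limma was 0.0458. Without denervation 2 alone it was 0.0555. After entrapment the difference without both arrays was 1.84 (adjusted p = 0.0039). The endothelial miRNAs moved the same way in soleus. Their summed signal was 325.7 on the sham array, with miR-126* not detected there, and 895.5 to 1465 on the injury arrays. The muscle list was 177078 on the sham array and 48288 to 301143 on the injury arrays, and the leukocyte list was 612.8 against 269.8 to 668.9. The mesenchymal list was 561.6 against 362.2 to 902.6. The part of these cell types, and that of the sham array itself, in the miR-196a difference was not tested.

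**Figure D1:**
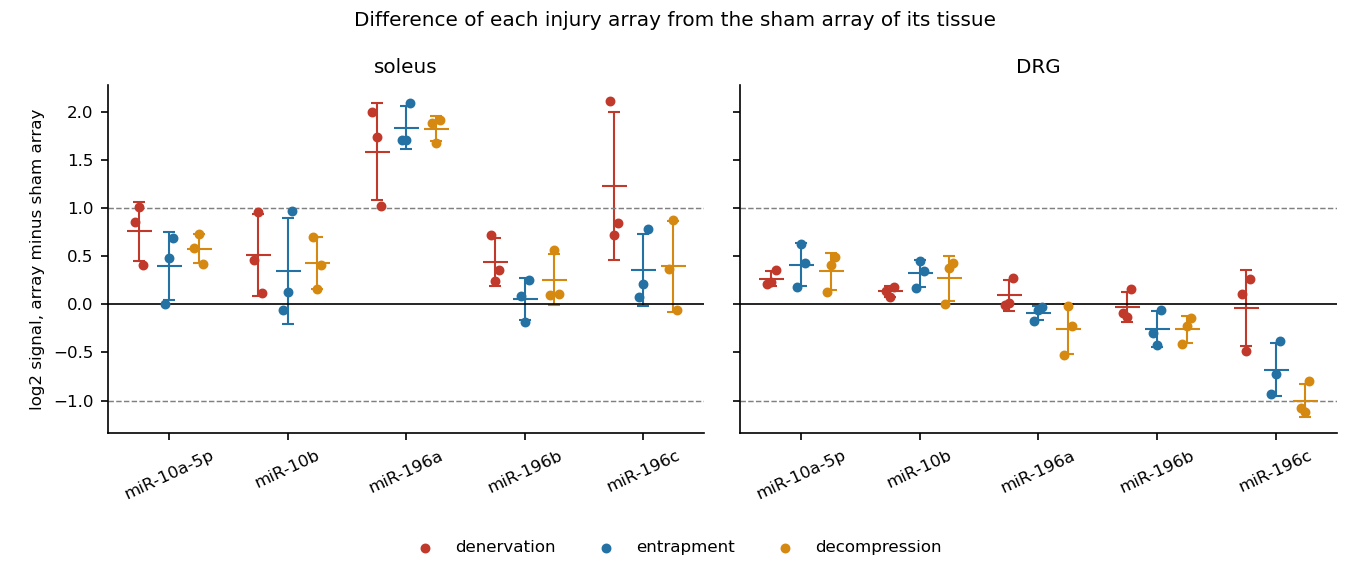
Difference in log2 scaled signal between each injury array and the single sham array of its tissue (vertical axis) for the 5 detected members, with a horizontal bar for the mean and a vertical bar for the SD of 3 arrays; the dashed lines mark 2-fold. In soleus all 9 miR-196a points lie above the upper dashed line, and in the DRGs the mean of miR-196c is -0.04 after denervation, -0.68 after entrapment and -1.0002 after decompression (0.16, 0.16 and -0.15 with arrays scaled to their median).

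The other miR-196 forms did not pass the test in soleus. miR-196b, which differs from miR-196a by a single base, had a signal of 70.2 on the sham array. It was 116.0, 83.1 and 90.0 after denervation, 74.7, 61.8 and 83.5 after entrapment, and 74.99, 103.6 and 75.6 after decompression. Entrapment 2 lay below sham, and the groups overlapped each other. The differences from sham were 0.44 ± 0.37 (SE), 0.05 ± 0.37 and 0.26 ± 0.37, with adjusted p from limma between 0.407 and 0.956.

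For miR-196c, from the Hoxb cluster, the sham signal in soleus was 33.4. The denervation arrays read 144.3, 55.0 and 60.1, the entrapment arrays 35.3, 38.7 and 57.6, and the decompression arrays 43.1, 61.2 and 32.0. Denervation 1 stood far above all other arrays, and decompression 3 was below sham. The difference from sham was 1.23 ± 0.60 (SE) after denervation (adjusted p = 0.165 in limma), 0.36 ± 0.60 after entrapment and 0.39 ± 0.60 after decompression, none of which passed.

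The ratio of 2 signals on the same array is untouched by any scaling that divides an array by 1 factor, though not by quantile scaling or loess, and only its change between arrays is read. The log2 ratio of miR-196b to miR-196a was 0.13 on the soleus sham array and between -1.76 and -0.53 on the 9 injury arrays, without overlap. The ratio of miR-196a to miR-10a-5p was -0.49 on the sham array, and it was between 0.12 and 1.22 on the injury arrays. On every injury array miR-196a was thus higher, relative to sham, also against a sister form and against a member of the other family. Both ratios reuse the single sham reading of miR-196a, so they add no separate support for its difference from sham. The sham array lay outside the injury arrays in both ratios also with quantile scaling and with rank-consistent loess. These ratios were chosen after their values were seen, and their difference from sham was not tested.

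Both miR-10 members were above sham on most injured soleus arrays, but by amounts within the spread. The paper, with its own normalization, lists both of them and miR-196c as down-regulated in soleus after entrapment and after decompression. Here the mean differences of these members from sham were positive in both groups, and none was called. The reason for the opposite direction was not tested. The miR-10a-5p signal was 89.8 on sham, then 162.5, 180.8 and 119.6 after denervation, 90.2, 125.8 and 145.4 after entrapment, and 135.0, 149.0 and 120.4 after decompression. Every injury array was above sham, with entrapment 1 nearly level with it. The differences were 0.76 ± 0.39 (SE), 0.40 ± 0.39 and 0.58 ± 0.39 (adjusted p = 0.184, 0.487 and 0.286 in limma). miR-10a-5p and miR-196a were the 2 of 5 members for which all 9 injury arrays exceeded sham, a pattern that 16.8% of the tested soleus miRNAs showed. With arrays scaled across both tissues, 8 of 9 injured soleus arrays were above sham for miR-10a-5p and 9 of 9 for miR-196a.

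miR-10b in soleus read 296.3 on sham, 407.7, 578.3 and 320.7 after denervation, 285.0, 324.2 and 580.9 after entrapment, and 483.1, 331.6 and 394.5 after decompression. Entrapment 1 was below sham, and 1 array each of denervation and entrapment was well above the rest. The differences from sham were 0.51 ± 0.49 (SE), 0.35 ± 0.49 and 0.43 ± 0.49, with adjusted p from limma between 0.492 and 0.630. Over the 5 members the median difference was 0.76, 0.36 and 0.43 for denervation, entrapment and decompression.

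No member was called between injury groups in soleus. After entrapment against denervation 0 of 5 members were called, where 11.6% of the tested miRNAs were, and after decompression against denervation 0 of 5, where 13.9% were. The widest difference was that of miR-196c, -0.87 ± 0.42 (SE) for entrapment and -0.83 ± 0.42 for decompression, both against denervation (adjusted p = 0.239 and 0.231 in limma). For miR-196a the interval of the entrapment minus denervation difference ran from -0.42 to 0.92. Decompression against entrapment gave 0 calls among all 173 miRNAs in limma (0% called), with 7 miRNAs at an unadjusted p under 0.05 and no member among them. The miR-196a difference there was -0.01, with an interval from -0.68 to 0.66.

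**Figure D2:**
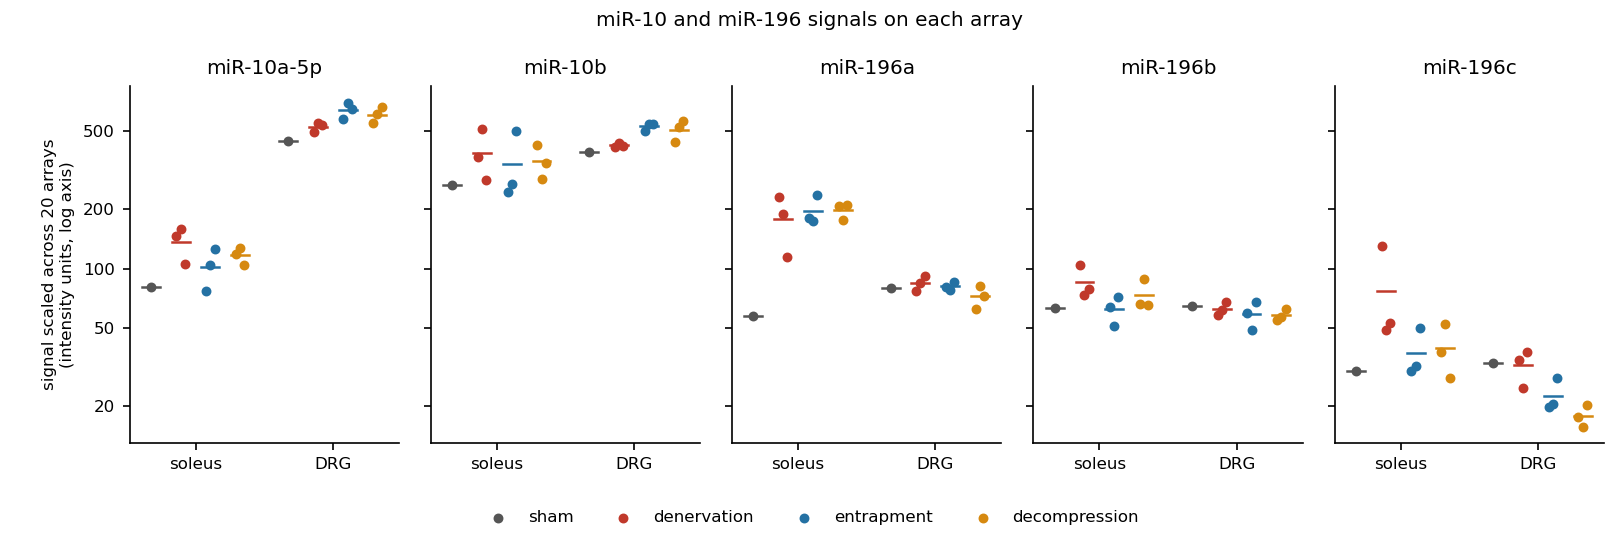
Signal of the 5 detected members on each of the 20 arrays, on the scale common to both tissues (vertical axis, intensity units, log axis), by tissue and group, with a bar at each group mean; heights of different miRNAs are not comparable. Each DRG point of miR-10a-5p lies above each soleus point, while miR-196a is high on the 9 injured soleus arrays and lower on the soleus sham array and on all DRG arrays.

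In the DRGs miR-196c was lower after decompression than after denervation, and less firmly so after entrapment, while no member passed the test against sham. miR-10a-5p and miR-10b were slightly above sham on every injury array. Against denervation, the decrease of miR-196c was 1.56-fold after entrapment and 1.95-fold after decompression. These calls depended on how arrays were scaled. They also run along the split of the control features and raw background, so injury type and that split cannot be told apart. Which group showed the larger decrease rests on the scanner file names, which the processed table contradicts for these 2 groups.

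The miR-196c signal in the DRGs was 30.1 on sham and 32.5, 21.4 and 36.1 after denervation. It was 15.8, 18.2 and 23.1 after entrapment and 14.3, 13.8 and 17.3 after decompression. All decompression arrays were below all denervation arrays, and entrapment 3 was above denervation 2, so that these groups overlapped by 1 array. Against denervation the difference was -0.64 ± 0.22 (SE) after entrapment, with an adjusted p of 0.0454 in limma. After decompression it was -0.96 ± 0.22, with one of 0.0092. miR-196c was the 1 member of 5 called in each of these comparisons. For entrapment 41.1% of the 219 tested miRNAs were called in either direction and 32.9% as lower. For decompression the shares were 36.5% and 27.9%, so 1 member of 5 was not above the background.

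Relative to the median of all tested miRNAs, which was -0.15 in both comparisons, miR-196c stood at -0.49 and -0.82. Over 11 settings these relative values ranged from -0.82 to -0.24 and from -0.96 to -0.49. Leaving out denervation 1 or 3, entrapment 1 or 2, or any of the decompression arrays ended the call for entrapment, with adjusted p from limma between 0.01003 and 0.154 over the 9 omissions. The call for decompression remained without each of the 9 arrays in turn (-1.19 to -0.81). With the low offset of the entrapment and decompression arrays removed, the differences were -0.36 (adjusted p = 0.183) and -0.66 (adjusted p = 0.0323). miR-10a-3p, which was detected on no array, had a raw signal of 2.08 to 4.76 on the DRG sham and denervation arrays and a negative one on the other 6. Scaling each array to its median instead moved the median of all tested miRNAs to 0.49 and 0.51, and the split of called miRNAs for entrapment from 72 lower and 18 higher to 24 and 126. It gave miR-196c differences of 0.0010 for entrapment (adjusted p = 0.996) and -0.31 for decompression (adjusted p = 0.191), and quantile scaling gave -0.21 (adjusted p = 0.522) and -0.47 (adjusted p = 0.157).

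miR-196a in the DRGs read 72.5 on sham, 72.1, 73.0 and 87.9 after denervation, 64.4, 69.4 and 71.1 after entrapment, and 50.4, 71.9 and 61.9 after decompression. The 6 entrapment and decompression arrays were all below the 4 sham and denervation arrays, by a narrow margin between 71.9 and 72.1. Such a separation, in either direction, was found for 34.2% of the tested miRNAs. The limma difference was -0.18 ± 0.14 (SE) for entrapment and -0.35 ± 0.14 for decompression, both against denervation (adjusted p = 0.339 and 0.0848). Neither passed, but without decompression 2 the latter was -0.47 (adjusted p = 0.0350). With arrays scaled to their median the direction turned, to 0.46 and 0.30.

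miR-196b in the DRGs read 58.5 on sham, 54.9, 53.2 and 65.2 after denervation, 47.6, 43.6 and 56.4 after entrapment, and 44.0, 49.9 and 53.1 after decompression. The decompression arrays lay just below the denervation arrays, and entrapment 3 overlapped them. The differences against denervation were -0.23 ± 0.13 (SE) and -0.24 ± 0.13 (adjusted p = 0.184 and 0.183 in limma), and with median scaling they were 0.41 and 0.42. Counting separation alone, 1 of 5 members was lower without overlap after entrapment than after denervation (miR-196a), against 37.9% of all tested miRNAs. After decompression it was 3 of 5 (all 3 miR-196 forms), against 39.7%.

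miR-10a-5p in the DRGs read 401.7 on sham, 464.1, 472.9 and 514.6 after denervation, 456.5, 620.5 and 540.7 after entrapment, and 439.7, 532.7 and 563.6 after decompression. miR-10b read 353.9 on sham, 390.5, 373.5 and 401.8 after denervation, 398.1, 482.5 and 450.2 after entrapment, and 354.3, 458.7 and 478.0 after decompression. Both were above sham on all 9 injury arrays, decompression 1 of miR-10b by the smallest margin, and 15.1% of the tested miRNAs showed this. The differences from sham were between 0.27 and 0.41 for miR-10a-5p and between 0.13 and 0.32 for miR-10b, with adjusted p from limma of 0.148 or more. Scaling set these values: with arrays scaled to their median miR-10a-5p stood at 1.26 for entrapment and 1.195 for decompression and miR-10b at 1.16 and 1.12 (adjusted p between 0.0046 and 0.0053). Without scaling the same differences were between -0.07 and 0.06.

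Against sham 0 of 5 members were called in the DRGs after denervation, where 0.457% of the tested miRNAs, a single one, were called. After entrapment it was again 0 of 5, where 19.6% were called, and after decompression 0 of 5, where 18.3% were. miR-196c came closest, at -0.68 ± 0.31 (SE) after entrapment, with an adjusted p of 0.144 in limma, and -1.0002 ± 0.31 after decompression, with one of 0.0545. No member passed the 2-fold rule in the DRGs, although miR-196c was past 2-fold on decompression 1 and 2. Decompression against entrapment gave 0 calls among 219 miRNAs in limma (0% called), with 9 at an unadjusted p under 0.05 and no member among them. The miR-196c difference there was -0.32, with an interval from -0.82 to 0.18.

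Within an array, the log2 ratio of miR-196c to miR-10a-5p in the DRGs was -3.74 on sham, -4.04 ± 0.36 (SD, n = 3) after denervation, -4.83 ± 0.27 after entrapment and -5.08 ± 0.17 after decompression. The denervation arrays were above all entrapment and all decompression arrays, and each of these differences had an exact permutation p of 0.1, two-sided, the smallest that 3 against 3 arrays allow (Benjamini-Hochberg over 6 tests, 0.30). The differences were -0.79 for entrapment and -1.04 for decompression. Quantile scaling lowered them to -0.44 and -0.62 and rank-consistent loess to -0.50 and -0.71, and under both the entrapment arrays overlapped the denervation arrays. A ratio also does not remove the low offset of the entrapment and decompression arrays. That offset weighs more on miR-196c, with raw DRG signals of 12.3 to 43.1, than on miR-10a-5p, with 374.0 to 616.7. Its part in these differences was not tested. Both genes lie in the Hoxb cluster. The correlation of their log2 signals was -0.23 over the 10 DRG arrays and 0.66 over the 10 soleus arrays.

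Among the members, the largest log2 difference between the tissues was that of miR-10a-5p, which was about 5-fold higher in the DRGs. It ranked 56th from the highest among the 234 tested miRNAs. Relative to the median of all tested miRNAs it stood at 1.33, and miR-196a and miR-196c departed further, at -1.85 and -1.73. The balance of the 2 miR-10 forms also differed between the tissues. Over the 4 groups miR-196a and miR-196c were lower in the DRGs than in soleus, though not on the sham arrays, and miR-196b did not pass the test. These values are on a scale set across all 20 arrays by the 102 miRNAs detected on each of them.

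On that scale miR-10a-5p ranged from 77.4 to 159.7 in soleus (median 111.8) and from 443.1 to 696.5 in the DRGs (median 559.6). The ranges were far apart, and miR-10a-5p was the only member that was higher in the DRGs without overlap, as were 36.3% of the 234 tested miRNAs. The order of the group means ran from DRG entrapment at 639.3 ± 63.0 (SD, n = 3) through DRG decompression at 604.9 ± 57.6 and denervation at 525.7 ± 28.8 to the DRG sham array at 443.1. The soleus groups followed, denervation at 137.0 ± 28.3, decompression at 116.9 ± 11.8, entrapment at 102.4 ± 24.2 and sham at 80.8. Neighbouring groups overlapped except DRG denervation and DRG sham, and DRG sham and soleus denervation.

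In limma the DRG minus soleus difference of miR-10a-5p was 2.36 ± 0.11 (SE) on the log2 scale (5.15-fold; adjusted p = 3.86e-11). It was 2.45 within sham, 1.96 within denervation, 2.67 within entrapment and 2.37 within decompression. Most miRNAs were higher in the DRGs on this scale, with a median of 1.03 over the 234 tested, and the excess of miR-10a-5p over that median was 1.33. Over 10 settings this excess ranged from 1.17 to 2.16. Of the tested miRNAs 81.6% were called between the tissues, 62.8% as higher in the DRGs and 18.8% as lower, and 4 of 5 members were called, 2 in each direction. The split depended on scaling: 147 miRNAs were higher and 44 lower here, 96 and 90 after quantile scaling, and 105 and 76 with the percentile over all miRNAs.

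miR-10b ranged from 244.6 to 510.8 in soleus (median 313.2) and from 390.4 to 560.4 in the DRGs (median 469.1), with overlap. Its difference of 0.50 ± 0.16 (SE) passed in limma (adjusted p = 0.0096), but its direction was set by the scaling. It turned to -0.24 after quantile scaling (adjusted p = 0.0313) and to -0.30 with the percentile over all miRNAs (adjusted p = 0.115), and relative to the median of all miRNAs it was -0.53. Its group means ran from 527.0 ± 24.6 (SD, n = 3) in DRG entrapment to 266.7 on the soleus sham array, and the DRG sham value of 390.4 lay within the soleus denervation range.

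**Figure D3:**
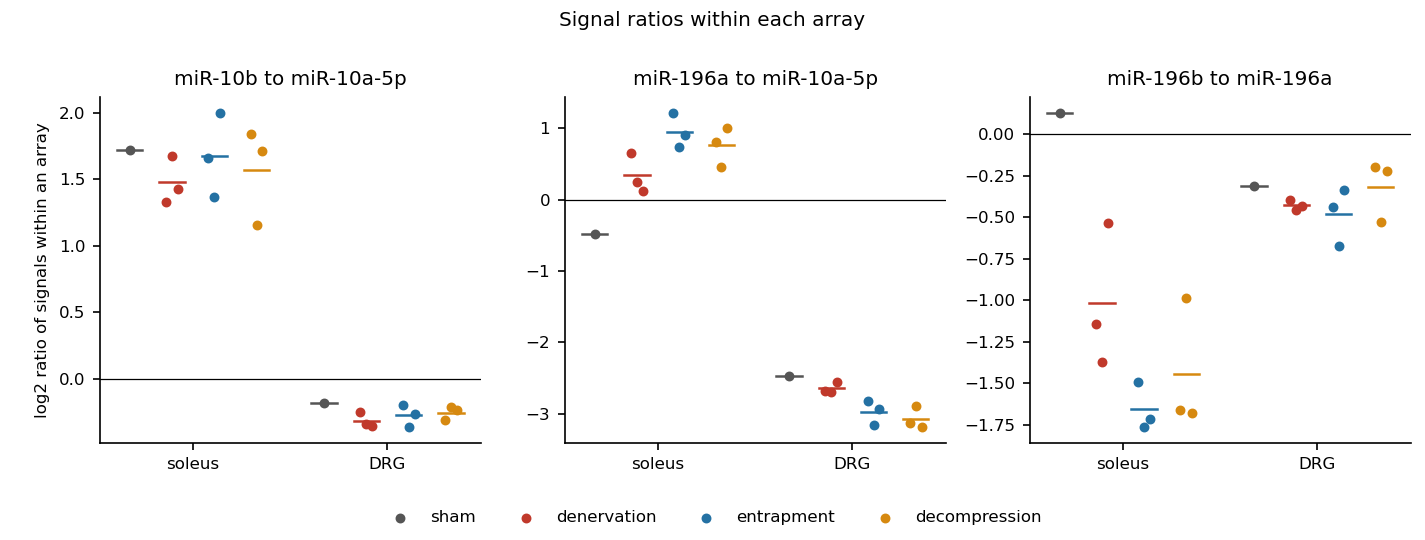
Log2 ratio of 2 signals on the same array (vertical axis) for 3 pairs of members, by tissue and group, with a bar at the group mean; zero only marks equal signals of different probes. For miR-10b to miR-10a-5p the soleus arrays lie between 1.15 and 2.00 and the DRG arrays between -0.36 and -0.18, and for both pairs with miR-196a the soleus sham array lies outside the range of the injured soleus arrays.

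The ratio of miR-10b to miR-10a-5p is the same under any scaling by 1 factor per array. Its log2 value was 1.59 ± 0.26 (SD, n = 10) in soleus and -0.27 ± 0.07 (n = 10) in the DRGs, with no overlap and a difference of -1.86, a 3.63-fold change of the ratio (permutation test, two-sided, p = 2e-05, the smallest that 100000 resamples can give). Quantile scaling gave -1.97, also without overlap. No shift between the injury groups was detected. In soleus it was 1.48 ± 0.18 (SD, n = 3) after denervation, 1.67 ± 0.32 after entrapment and 1.57 ± 0.36 after decompression, and in the DRGs -0.32 ± 0.06, -0.27 ± 0.08 and -0.26 ± 0.05. Exact permutation p-values for the 3 pairs of injury groups in each tissue were between 0.2 and 0.8, and 0.80 after adjustment over the 6 tests, where 0.1 is the smallest that 3 against 3 arrays allow.

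miR-196a ranged from 57.7 to 236.7 in soleus (median 184.9) and from 62.5 to 91.6 in the DRGs (median 80.3). The 9 injured soleus arrays were above all DRG arrays and the soleus sham array was below all of them. Group means were 197.9 ± 19.3 (SD, n = 3) in soleus decompression, 196.8 ± 34.7 in entrapment and 178.2 ± 58.7 in denervation. In the DRGs they were 84.2 ± 7.5 in denervation, 81.3 ± 3.8 in entrapment, 79.9 on sham and 72.4 ± 9.8 in decompression, and the soleus sham array came last with 57.7.

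The DRG minus soleus difference of miR-196a was -0.82 ± 0.13 (SE; adjusted p = 3.77e-05 in limma) over the 4 groups. Within sham it was 0.47 (adjusted p = 0.296), and within denervation, entrapment and decompression it was -1.03, -1.26 and -1.46. The change from sham therefore differed between the tissues, and this difference was tested directly. For miR-196a the DRG change minus the soleus change was -1.50 ± 0.43 (SE) for denervation (adjusted p = 0.0215), -1.73 ± 0.43 for entrapment (adjusted p = 0.0088) and -1.93 ± 0.43 for decompression (adjusted p = 0.0040), all in limma.

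Of the 234 miRNAs tested across tissues, 23.5% were called in this way for denervation and 8.55% with a lower change in the DRGs. For entrapment the shares were 27.4% and 8.55%, and for decompression 27.4% and 8.55%, and miR-196a was the 1 member of 5 in each. The other 4 members gave differences between -1.27 and 0.21, with adjusted p of 0.195 or more. All 3 tests use the same pair of sham arrays, so they are not independent of one another.

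miR-196c ranged from 27.7 to 129.8 in soleus (median 43.2) and from 15.8 to 37.7 in the DRGs (median 22.6), with overlap, and differed by -0.69 ± 0.21 (SE; adjusted p = 0.0074 in limma). Within sham the difference was 0.14 (adjusted p = 0.853), and within denervation, entrapment and decompression it was -1.12, -0.70 and -1.09. Its highest group mean was 77.1 ± 45.7 (SD, n = 3) in soleus denervation and its lowest was 17.9 ± 2.3 in DRG decompression. miR-196b ranged from 51.2 to 104.3 in soleus (median 68.9) and from 48.9 to 68.0 in the DRGs (median 60.6). Its difference was -0.21 ± 0.11 (adjusted p = 0.104), and its group means lay between 58.0 and 85.6. Against the median of all tested miRNAs, miR-196a and miR-196c stood at -1.85 and -1.73.

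**Figure D4:**
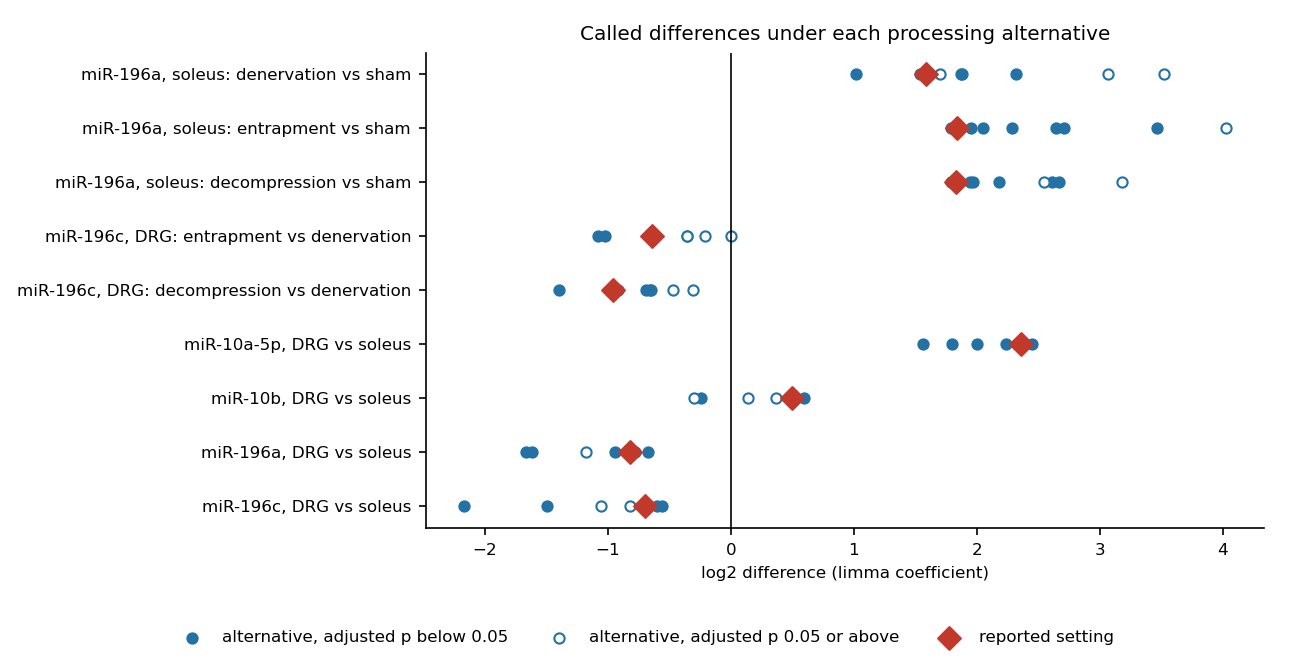
Log2 difference from limma (horizontal axis) for the 9 called differences of members between groups or tissues, as reported (diamond) and under each processing alternative (filled circle, adjusted p below 0.05; open circle, 0.05 or above). The miR-196a and miR-10a-5p rows keep their side of 0 throughout, miR-10b crosses it, and miR-196c in entrapment against denervation reaches it.

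Across the 10 arrays of a tissue, the highest correlations among members were within a family. Pearson's r of the log2 signals was 0.74 in soleus and 0.94 in the DRGs for miR-10a-5p with miR-10b, and 0.87 and 0.82 for miR-196b with miR-196c. miR-196a correlated with miR-196b at 0.26 in soleus and 0.74 in the DRGs. Across the families, soleus values were between 0.17 (miR-10b with miR-196b) and 0.66 (miR-10a-5p with miR-196c), 4 of the 6 above both pairs with miR-196a inside its own family, and DRG values were between -0.31 and 0.18. The arrays share the scaling and the group differences, so these are descriptions over 10 points and carry no test.

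The miRNAs outside the 2 families with the pattern most like a member were found by the same measure, over 10 arrays and 168 candidates in soleus or 214 in the DRGs. In soleus miR-196a was nearest to miR-151 (r = 0.94), miR-26b (0.92) and miR-148b-3p (0.92), and miR-10a-5p to miR-30c (0.87). miR-10b had no close match there, with miR-218 at 0.67, while miR-196b was nearest to miR-350 (0.79) and miR-196c to miR-301a (0.77). In the DRGs miR-10a-5p was nearest to miR-497 (0.94), miR-151 (0.94) and miR-99a (0.93), and miR-10b to miR-99a (0.91). For miR-196a it was miR-872 (0.81), for miR-196b miR-181b (0.93) and for miR-196c miR-299 (0.93).

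The relatives of miR-10 outside the Hox clusters were miR-99a and miR-99b with their star strands, miR-100, miR-125a-5p and miR-125b-5p. The miR-125 forms lie beside the others in the genome. Of the 6 tested in soleus none was higher than sham in any injury group. Among all tested miRNAs 11.6% were called higher after denervation and 9.83% after entrapment and after decompression. With 6 relatives, none higher is not set apart from these shares. One was lower after denervation and after entrapment, miR-99a* at -1.66 (adjusted p = 0.0080) and -1.25 (adjusted p = 0.0248) in limma. After decompression 4 were lower, miR-100 at -0.9999, miR-125b-5p at -1.36, miR-99a* at -1.09 and miR-99b at -1.76 (adjusted p between 0.0276 and 0.0480), all in limma. Of all tested miRNAs 15.0% were lower after denervation, 19.7% after entrapment and 22.0% after decompression. The 1 of 6 after denervation and after entrapment was thus near the share of all miRNAs. The 4 lower after decompression became 3 with arrays scaled to their median and 1 with quantile scaling or with rank-consistent loess.

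In the DRGs the change among the relatives was in miR-125a-5p, the counterpart of the founding worm miRNA lin-4. Its difference from sham was -0.49 for entrapment (adjusted p = 0.0158), and -0.51 with an adjusted p of 0.0146 for decompression, and from denervation -0.46 and -0.47 (adjusted p = 0.0021 and 0.0018), in limma. miR-125b-5p was lower after entrapment than after denervation, at -0.26 (adjusted p = 0.0472), and none of the 6 tested relatives was higher in any of the 6 comparisons. Against sham 17.4% of all tested miRNAs were lower after entrapment and 16.4% after decompression. The direction depended on scaling: with arrays scaled to their median miR-125a-5p turned to 0.35 and 0.35 from sham and to 0.19 and 0.18 from denervation, none of them called, and 5 of the 6 relatives were called higher than sham in both groups. Between tissues 6 of 7 relatives were higher in the DRGs, among them miR-100 by 1.79 and miR-125b-5p by 1.92. Of all 234 tested miRNAs 62.8% were called higher there, with a median difference of 1.03, and this share depended on scaling. miR-10a-5p had the larger difference, 2.36, and miR-10b the smaller, 0.50, on the same scale of log2 differences.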

How the data were processed

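The 20 arrays were Agilent rat miRNA arrays read in 1 colour, 10 with soleus RNA and 10 with DRG RNA. The Cy3 labelling is described as amplification in the deposited labels and as ligation in the methods. The values are, per the file headers, intensity units from Agilent Feature Extraction 9.5.3, which subtracted the background and summed the probes of a miRNA into a total gene signal with an error and a detected flag. The authors deposited these intensities without any scaling across arrays. The series also holds processed signal values from the authors, in which each column is a scanner intensity divided by a constant (within 1% for nearly all miRNAs). Neither the reason for the constants nor any centring is given in the sources used here, and the column medians were between 0.0034 and 0.188. The rank-consistency LOWESS and GeneSpring steps of the methods could not be repeated as such.

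Of the 350 miRNAs, 348 carried the same name in all files and were used. Each array was divided by its 75th percentile. In soleus this was taken over the 108 miRNAs that every array detected, since the median array detected 148.5, in the DRGs (median 195) over all 348, and for both tissues together over 102. The percentiles spanned 6.20-fold in soleus and 1.62-fold in the DRGs. Signals below a floor (2.71 in soleus, 2.31 in the DRGs, 2.43 jointly) were set to it before log2 was taken. limma 3.58.1 in R 4.3.3 (lmFit, eBayes) used the group as its single term, once for each tissue (6 residual and 3.08 or 2.12 prior degrees of freedom) and once for all 20 arrays (12 and 2.13). P-values were two-sided and adjusted at 0.05. Tests between tissues took soleus and DRG arrays as independent. The methods take both tissues from 3 rats of each group, and the labels do not pair them. Ratios were tested by permutation in scipy 1.17.1 with Python 3.11.15, and figures were drawn with matplotlib 3.10.9. The fits were tested on simulated data. No slide or scan could be named from the files used here, so neither was tested as a batch. The number of arrays, with 1 sham array per tissue, limits the precision. The members, the marker and relative lists, the tests and the alternatives were chosen with earlier results of these data known. Named miRNAs were all members, their relatives miR-99, miR-100 and miR-125, and the 3 other miRNAs most alike to each member. The ratios other than miR-10b to miR-10a-5p, the offset removal, the joint omission of denervation 1 and 2, and the differences relative to the median were chosen after the values were seen. The summed signals of the red blood cell and glial marker lists were 168.2 to 1995 and 44.3 to 174 in soleus and 806.8 to 5351 and 8943 to 14275 in the DRGs.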

Additional observations from a re-analysis of the deposited data

Results flagged for a closer look

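The change of miR-196a from sham differed between the tissues in each injury group. In the test of that difference itself, the DRG change minus the soleus change was -1.50 ± 0.43 (SE) for denervation (adjusted p = 0.0215), -1.73 ± 0.43 for entrapment (adjusted p = 0.0088) and -1.93 ± 0.43 for decompression (adjusted p = 0.0040) on the log2 scale, in limma over all 20 arrays. The soleus change was positive on 9 of 9 injury arrays. In the DRGs 2 of 9 injury arrays were above the sham array on the scale of that tissue, and 5 of 9 on the scale common to both tissues. Relative to the median of all tested miRNAs the values were -1.52, -1.91 and -2.06, and over 10 settings each kept its sign. The 3 differences share the sham array of each tissue, and the part of these 2 arrays was not tested.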

How the results depend on the processing

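The call of miR-196a against sham in soleus kept its direction under every alternative run. Under no scaling 0 members were called after denervation and 0 after decompression (3.07, adjusted p = 0.0899, and 3.18, adjusted p = 0.0674, for miR-196a), and with the authors' processed values 0 in each of the 3 groups. Quantile scaling called 3 members in each of the 3 groups, and the percentile over all miRNAs 3 after decompression. Where no count over all miRNAs stands beside them, member counts in this section show only how calls depend on processing, not a trait of the members. With the replicate number as a block 0 were called after denervation. The replicate numbers do not pair the arrays by the labels, and same-numbered arrays correlated above 0.1 in 1 of 9 pairs in soleus and 4 of 9 in the DRGs. The block otherwise called 1 member in the DRGs after decompression against sham and changed no other call of a member, and it moved the count of all calls in soleus from 46, 51 and 55 to 24, 27 and 27. By the 2-fold rule, quantile scaling gave 2, 3 and 4 members for denervation, entrapment and decompression, no scaling 5 for entrapment and 5 for decompression, the authors' values 5, 5 and 0, the percentile over all miRNAs 2 for denervation and 2 for decompression, and removal of the offset 0 for denervation.

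In the DRGs median scaling called 4 members for entrapment and 3 for decompression against sham and 4 and 3 against denervation, with 1 past the 2-fold rule for entrapment. It moved the median of all tested miRNAs up by 0.64 to 0.85 in these 4 comparisons and the count of all calls against sham from 43 and 40 to 141 and 148. Under it the difference of miR-196c between entrapment and denervation was 0.0010. No scaling called 1 member for decompression against sham, 3 and 3 against denervation and 1 by the 2-fold rule for decompression. Quantile scaling called 1 for entrapment against sham and 0 and 0 against denervation. For entrapment against denervation 0 members were called with rank-consistent loess, with no detection filter, with a pseudocount and with the offset removed. For decompression against sham 1 was called with the percentile taken over the miRNAs that all DRG arrays detected. With the columns of the processed table taken by their own names, the ratio of miR-10b to miR-10a-5p for decompression minus entrapment was -0.020.

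Between tissues no scaling called 2 members and the processed values 1. miR-10b turned to -0.24 with quantile scaling and -0.30 with the percentile over all miRNAs. For the differences between tissues in the change from sham, no scaling called 0, 0 and 0 members and the processed values 0, 0 and 0, quantile scaling 2 for entrapment and 2 for decompression, and the percentile over all miRNAs 2 and 3. The cause of these changes was not tested. Unscaled arrays differ by 6.20-fold in brightness in soleus.

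With 1 injury array left out, members called ranged from 0 to 1 after denervation in soleus (0 without denervation 2), from 0 to 1 in the DRGs for decompression against sham (1 without denervation 2 or entrapment 3), from 0 to 1 for entrapment against denervation and from 1 to 2 for decompression against denervation (2 without decompression 2). By the 2-fold rule, decompression in the DRGs ranged from 0 to 1 (1 without decompression 3). The ratio of miR-10b to miR-10a-5p ranged from -0.043 to 0.30 for decompression minus denervation and from -0.26 to 0.10 for decompression minus entrapment in soleus, and from -0.024 to 0.059 for the latter in the DRGs. With scalings added after the data were seen, it was -0.069 for decompression minus denervation in soleus under rank-consistent loess and -0.0057 for entrapment minus denervation in the DRGs under quantile scaling. Beside miR-196c for decompression against sham in the DRGs, 67 member differences were not called, and of these 1 of 720 values passed with an array left out and 34 of 684 under the other alternatives. The sham arrays could not be left out. Signals close to the floor, as for miR-10a-3p and miR-196a*, carry no order.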
